A study of Mus musculus with 18 samples.

Results

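Complement is a cascade of plasma proteins that tags microbes, dying cells and debris for removal. In the classical pathway C1q binds a target and switches on the proteases C1r and C1s, and C1s cuts C4 and C2. The fragments form an enzyme that cuts C3, and factor B builds a further C3-cutting enzyme in the alternative pathway. Most circulating complement comes from the liver, but macrophages, fibroblasts and other cells of peripheral tissues also transcribe these genes. The 9 genes described here cover these steps in mouse skeletal muscle: C1qa, C1qb and C1qc, which encode the A, B and C chains of C1q, C1ra, C2, C3, C4b, Cfb and Serping1. They were picked by name out of 23420 genes in the RNA-seq table, with earlier results of these data known. The main pattern was a fall of C1qa, C1qb and C1ra in 20-m muscle, a rise of C4b at both later ages, and a rise of C3 and Cfb at 28 m. Of these, only the rise of C4b at 28 m against 2 m was called in all 22 alternative analyses.

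RNA-seq was made from the hindlimb muscle of 2-, 20- and 28-month-old female C57BL/6J mice (2 m, 20 m and 28 m), with 3 mice per age and 1 library per mouse. No mouse carried an altered allele or received a treatment, so age was the only factor. MBD-seq, in which a methyl-CpG-binding protein captures methylated DNA, was made from the pooled muscle DNA of 3 mice per age, with 1 column of values per age. The labels list 2 rounds of muscle capture, and the columns do not say which round they hold. Each RNA value is a normalized count, that is, the reads of a gene divided by 1 size factor per library. A gene was called changed at an adjusted p under 0.05 in limma, run on log2(normalized count + 1) over 13178 genes averaging at least 10 normalized counts. All 9 complement genes passed that filter. Log2 fold changes below are on this log2 scale and carry their standard error (SE).

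The libraries held between 20203833 and 71115244 reads on genes. The libraries numbered 3 stood apart at every age: the ribosomal RNA precursor Rn45s took between 8.81% and 10.4% of their normalized counts, against 24.0% to 30.4% in the other 6. The 10 skeletal muscle markers were high in every library, with sums between 6218190 and 8299580 normalized counts. Markers of hepatocytes, the main source of plasma complement, were at or near 0 (sums between 2.76 and 15.9, with 4 of 8 at 0 in all libraries). In bulk tissue, fewer cells of a type and less RNA per cell cannot be told apart.

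Per kilobase of exon, complement transcripts spanned a wide range of levels. Serping1, which encodes the C1 inhibitor, stood highest with a mean of 1448 normalized counts per kilobase over the 9 libraries. C3, the component on which all complement pathways converge, followed with 810. The ranges of these 2 genes over the libraries overlapped neither each other nor that of any other member. The C1q chains came next, with 330 for C1qa, 273 for C1qc and 269 for C1qb. C1qa exceeded C1qc in 9 of 9 libraries, whereas C1qc exceeded C1qb in 6, so the order of the last pair was not settled. C1ra stood at 157, C4b at 121, Cfb at 78.8 and C2 at 43.8, and the ranges of neighbours in this order overlapped. The order of C1ra and C4b depended on age: the mean of C4b was 69.3 against 176 for C1ra at 2 m, and 196 against 166 at 28 m. On the scale of normalized counts without length, C3 lay at percentile 91.1 of the genes tested and C2 at percentile 24.3.

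**Figure D1:**
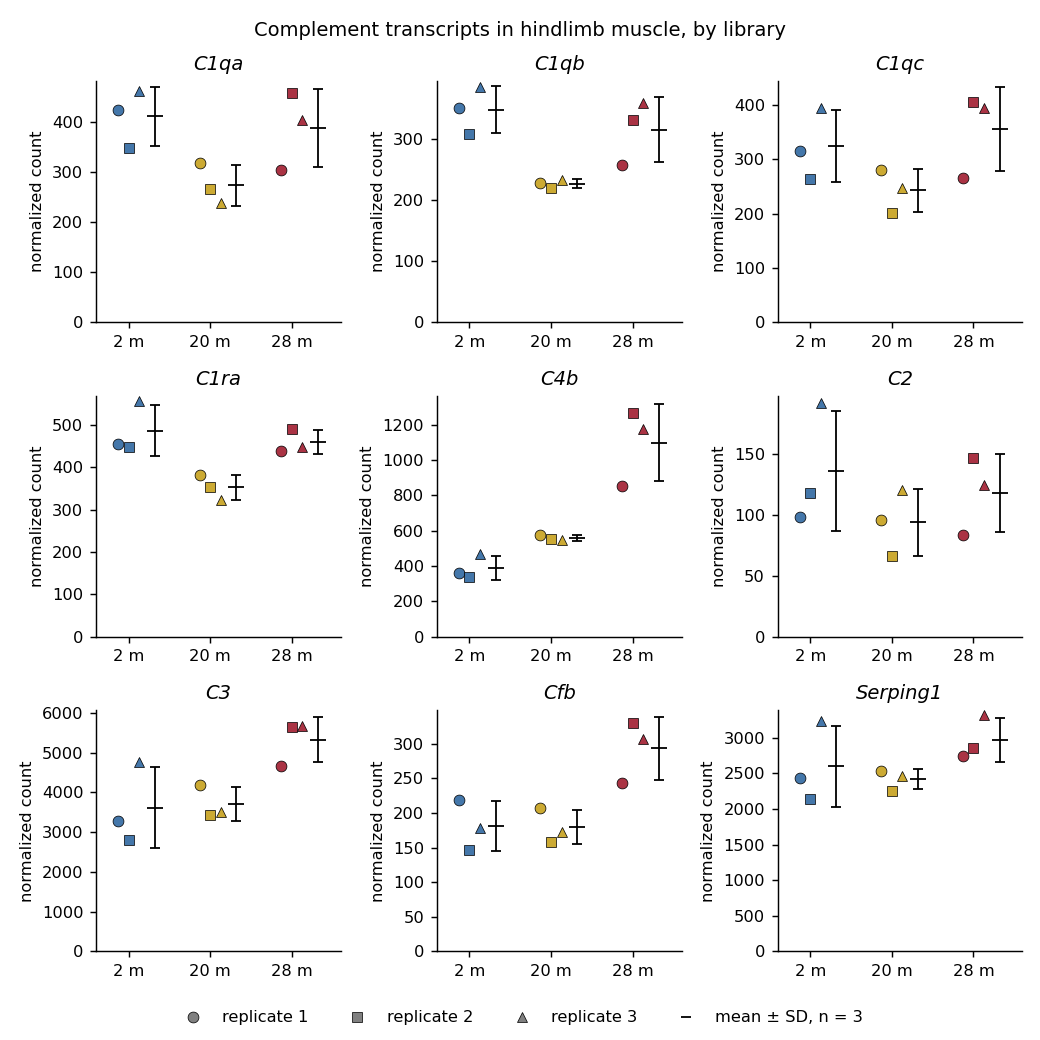
Normalized counts of the 9 complement genes (vertical axes, each starting at 0) in the 3 libraries of each age (horizontal axis, months), with the mean and SD (n = 3). C1qa, C1qb and C1ra lay lower in all 20-m libraries than in any 2-m library, as 17.6% of all genes tested did. C4b rose from age to age without overlap, where 18.4% of all genes lay wholly higher at 20 m and 15.3% at 28 m than at 2 m, and 8.63% at 28 m than at 20 m.

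The 3 C1q genes lie side by side on chromosome 4 (GRCm38, 136880126 to 136898844, minus strand), within 18.7 kb and with gaps of 3600 and 2979 bp. Their products assemble into 1 recognition protein, and tissue macrophages are their best known source. The RefSeq promoter windows (GRCm38.p6) of C1qc and C1qb, from 250 bases before the start site to 50 after it, are shown because these neighbours varied together. The capitals mark the motif matches found. For C1qa no window was in the table.

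C1qb (chr4:136886151-136886450, minus strand): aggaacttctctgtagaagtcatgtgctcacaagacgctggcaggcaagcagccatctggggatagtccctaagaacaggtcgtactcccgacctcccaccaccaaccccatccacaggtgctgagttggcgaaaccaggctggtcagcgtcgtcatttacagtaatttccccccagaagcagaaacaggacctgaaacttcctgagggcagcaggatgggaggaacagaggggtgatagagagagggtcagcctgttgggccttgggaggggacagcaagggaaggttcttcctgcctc

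C1qc (chr4:136892865-136893164, minus strand): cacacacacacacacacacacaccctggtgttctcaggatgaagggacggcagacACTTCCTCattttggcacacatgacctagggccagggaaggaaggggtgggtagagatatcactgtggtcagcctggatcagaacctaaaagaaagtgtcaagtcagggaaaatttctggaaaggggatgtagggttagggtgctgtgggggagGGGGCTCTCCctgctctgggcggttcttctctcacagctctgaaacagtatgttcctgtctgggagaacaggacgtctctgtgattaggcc

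Motifs were searched on both strands: GAGGAAGT for PU.1, a transcription factor of macrophages, TTCNNNGAA for the gamma-interferon-activated site, GAAANNGAA for the interferon-response core, TATAAA for the TATA box, and the NF-kappa-B site by its consensus. The C1qc window held the reverse complement of the PU.1 letters, ACTTCCTC, from 195 to 188 bases before the start site. It also held an NF-kappa-B match, GGGGCTCTCC, from 41 to 32 bases before it. Of 32851 windows of this length, 3.20% held the PU.1 letters and 4.51% the NF-kappa-B consensus. None of these letter strings occurred in the C1qb window.

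C1qa read 423, 347 and 462 normalized counts in the 2-m libraries, 318, 265 and 238 at 20 m, and 304, 457 and 404 at 28 m. All 20-m libraries lay below all 2-m libraries, and the 28-m libraries overlapped both other ages. C1qa fell by 0.59 on the log2 scale at 20 m (SE 0.18, limma adjusted p = 0.0387), to 0.666 of its level at 2 m. At 28 m it differed from 2 m by -0.09 (adjusted p = 0.778) and from 20 m by 0.49 (adjusted p = 0.328).

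C1qb read 350, 308 and 385 normalized counts at 2 m, 228, 219 and 233 at 20 m, and 256, 330 and 359 at 28 m. The 20-m libraries lay within a narrow band below every library of the other ages. C1qb fell by 0.61 at 20 m (SE 0.15, limma adjusted p = 0.0171). Its difference of 0.46 between 28 m and 20 m did not pass the test over all genes (adjusted p = 0.293).

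C1qc read 314, 264 and 394 normalized counts at 2 m, 280, 201 and 247 at 20 m, and 266, 405 and 394 at 28 m. Its ages overlapped in every comparison, and none of its differences passed: -0.41 at 20 m against 2 m (SE 0.20, limma adjusted p = 0.184), 0.12 at 28 m against 2 m (adjusted p = 0.734) and 0.53 at 28 m against 20 m (adjusted p = 0.359). C1qa and C1qb thus passed in 20-m muscle while C1qc, of the same sign, did not. Within a library the ratio of C1qa to C1qc averaged 1.28, 1.14 and 1.10 at 2, 20 and 28 m, and that of C1qb to C1qc 1.09, 0.949 and 0.896. At 20 m both ratios overlapped with 2 m (exact permutation p = 0.3 and 0.2), so the chains were not shown to differ there. Both lay wholly below 2 m at 28 m (exact permutation p = 0.1 each, the smallest possible).

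Cells that carry C1q were followed through 12 macrophage markers. Their summed normalized count ranged from 3348 to 4872 at 2 m, from 3208 to 3408 at 20 m and from 3429 to 4641 at 28 m. Of the 12, only Lyz2 was called lower at 20 m (log2 -0.54, limma adjusted p = 0.0221) and none at 28 m. Over all genes tested, 7.13% were called lower at 20 m and 6.24% at 28 m. The differences of Mrc1 (-0.44) and Csf1r (-0.29) at 20 m did not pass. In all, 10 of the 12 log2 fold changes at 20 m were negative, and the 2 above 0, Cd163 (0.25) and Lyve1 (0.23), did not pass either. The macrophage sums thus lay lowest at 20 m, with an overlap with 2 m, and their part in the fall of C1qa and C1qb was not tested. The genes whose pattern over the 9 libraries was most like that of C1qa were Fabp5 (Pearson r = 0.962 of the log2 values), H2-Aa (0.952) and Cd74 (0.946). H2-Aa encodes a chain of class II molecules, which present antigen, and Cd74 their invariant chain. Cd74 averaged 1774, 1338 and 1726 normalized counts at 2, 20 and 28 m. These likenesses are a description, since the libraries share ages and scaling.

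C1ra encodes a C1r protease and lies on chromosome 6 (124512621 to 124523440, plus strand) beside C1s. Its RefSeq window is shown because C1ra was a called member with a window.

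C1ra (chr6:124512371-124512670, plus strand): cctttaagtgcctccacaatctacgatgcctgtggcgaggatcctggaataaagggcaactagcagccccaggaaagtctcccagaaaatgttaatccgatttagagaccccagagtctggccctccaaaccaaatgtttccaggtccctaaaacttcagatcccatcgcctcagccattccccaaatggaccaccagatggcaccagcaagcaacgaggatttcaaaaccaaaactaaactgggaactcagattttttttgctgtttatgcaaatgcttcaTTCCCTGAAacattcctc

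The capitals mark a match to the gamma-interferon-activated site, 32 to 40 bases after the start site, in letters that 8.30% of all windows hold. C1ra read 455, 449 and 558 normalized counts at 2 m, 383, 354 and 324 at 20 m, and 438, 492 and 449 at 28 m. The 20-m libraries lay below all others, and the 2-m and 28-m libraries overlapped. C1ra fell by 0.46 at 20 m (SE 0.13, limma adjusted p = 0.0267) and differed from 2 m by -0.08 at 28 m (adjusted p = 0.730). C1s, which encodes the partner protease C1s, averaged 1370, 1324 and 1487 normalized counts at the 3 ages and was called in no comparison. The ratio of C1ra to C1s within a library, which does not depend on scaling, averaged 0.357 at 2 m, 0.269 at 20 m and 0.313 at 28 m. The ratio lay lower in every 20-m and 28-m library than in any 2-m library (exact permutation p = 0.1 for each, the smallest that 3 against 3 libraries allow). All ratios of transcripts given here were chosen after the values were seen. C1ra values are uncertain to the extent that reads are shared with C1rb, since 48.0% of the 50-base windows of the C1ra transcript also occur in C1rb. C1rb itself averaged 0.984 and 0.986 normalized counts at 2 m and 20 m, and read 15.2, 1.38 and 0 in the 28-m libraries.

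C4b encodes complement C4, which C1s cuts to start the covalent tagging of a surface. It lies on chromosome 17 (34728139 to 34743902, minus strand) in the class III region of the major histocompatibility complex. C4b, Cfb and C2 sit there within 154.0 kb, and Cfb and C2 are only 87 bp apart on the same strand. C4b read 359, 340 and 469 normalized counts at 2 m, 575, 552 and 548 at 20 m, and 854, 1264 and 1178 at 28 m. The ages did not overlap in any pair. C4b rose by 0.53 at 20 m (SE 0.16, limma adjusted p = 0.0347) and by 1.49 at 28 m against 2 m (SE 0.16, adjusted p = 8.61e-05), a fold of 2.81. It was also the only member called between 28 m and 20 m, with a log2 fold change of 0.95 (SE 0.16, adjusted p = 0.0194).

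The ratios of C4b to other complement transcripts differed between ages without overlap. C4b over C1s averaged 0.284 ± 0.00441 at 2 m, 0.424 ± 0.0415 at 20 m and 0.739 ± 0.117 at 28 m (SD, n = 3). C4b over C1qa averaged 0.948, 2.07 and 2.83, and C4b over C3 averaged 0.110, 0.152 and 0.205. For all 3 ratios the ages were fully apart, with an exact permutation p of 0.1 in each comparison, the floor for 3 against 3 libraries. The paralog C4a encodes sex-limited protein, a close copy of C4, and 34.6% of the 50-base windows of C4b transcripts also occur in it, so the split of reads between them is uncertain. C4a averaged 6.39, 0.926 and 4.99 normalized counts against 389, 558 and 1098 for C4b. The genes most like C4b over the 9 libraries were Klhl40 (Pearson r = 0.976), a stabilizer of thin filament proteins in muscle, Ces2c (0.973) and Osbpl11 (0.963).

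**Figure D2:**
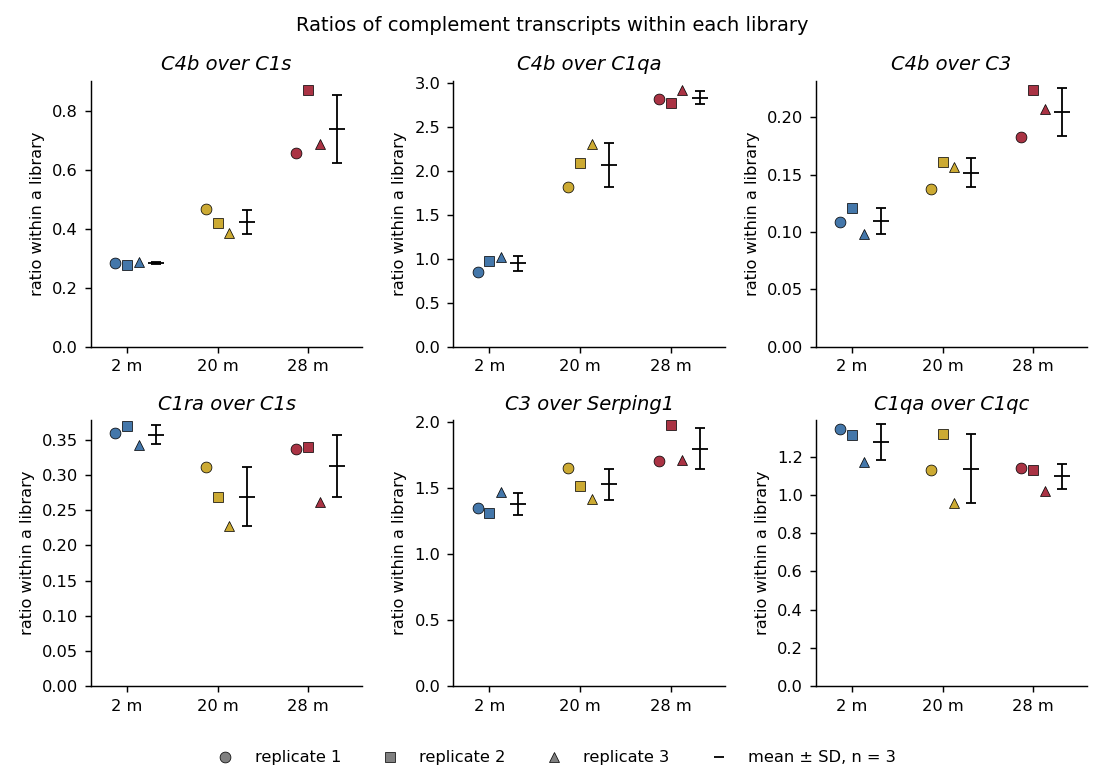
Ratios of normalized counts of complement transcripts within each library (vertical axes, starting at 0) by age (horizontal axis), with the mean and SD of 3 libraries. C4b rose against C1s, C1qa and C3 with no overlap between ages, and C1ra over C1s lay highest in the 2-m libraries.

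C2 encodes the protease partner of C4 in the classical C3 convertase. C2 read 98.1, 118 and 191 normalized counts at 2 m, 95.3, 65.8 and 120 at 20 m, and 83.5, 146 and 125 at 28 m. All 3 ages overlapped, and the gene rested on as few as 39 reads in a library. Its differences of -0.51 at 20 m (SE 0.31, limma adjusted p = 0.279) and -0.18 at 28 m (adjusted p = 0.750) did not pass the test.

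C3 lies on chromosome 17 (57203967 to 57228136, minus strand), apart from the C4b, Cfb and C2 group. Its RefSeq window is shown because C3 was called at 28 m and its start site gained MBD-seq signal, as given further on.

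C3 (chr17:57228087-57228386, minus strand): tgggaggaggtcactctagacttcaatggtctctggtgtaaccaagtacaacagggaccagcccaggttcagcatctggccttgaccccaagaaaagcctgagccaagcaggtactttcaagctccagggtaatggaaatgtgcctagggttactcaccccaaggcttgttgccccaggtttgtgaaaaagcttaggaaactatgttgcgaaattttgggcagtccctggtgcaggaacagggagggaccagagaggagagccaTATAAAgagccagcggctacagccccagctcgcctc

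The capitals mark TATAAA, 14 to 19 bases after the annotated start site, letters found in 13.6% of all windows. C3 read 3288, 2805 and 4770 normalized counts at 2 m, 4192, 3422 and 3499 at 20 m, and 4666, 5640 and 5683 at 28 m. The 28-m libraries lay above every 20-m library, but 2-m library 3 exceeded 28-m library 1. C3 rose by 0.59 at 28 m against 2 m (SE 0.16, limma adjusted p = 0.0289). At 20 m it stood 0.06 from 2 m (adjusted p = 0.822), and 28 m against 20 m gave 0.52 (adjusted p = 0.243).

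Cfb encodes factor B, the protease of the alternative C3 convertase. Cfb read 218, 146 and 178 normalized counts at 2 m, 207, 159 and 173 at 20 m, and 243, 330 and 308 at 28 m. The 28-m libraries lay above all libraries of both other ages, which overlapped closely. Cfb rose by 0.70 at 28 m against 2 m (SE 0.19, limma adjusted p = 0.0275), a fold of 1.63. Its log2 fold change of 28 m against 20 m was also 0.70, and did not pass over all genes (adjusted p = 0.163). Cfb and its neighbour C2 were not called together in any comparison, and Cfb over C2 averaged 1.46, 2.01 and 2.54 at the 3 ages.

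Serping1 lies on chromosome 2 (84765360 to 84775444, minus strand), and its product, a serpin, inactivates C1r and C1s. Serping1 read 2432, 2136 and 3236 normalized counts at 2 m, 2537, 2258 and 2469 at 20 m, and 2738, 2851 and 3322 at 28 m. The 28-m libraries lay above the 20-m libraries, and the 2-m libraries overlapped both. No difference passed: -0.08 at 20 m (SE 0.13, limma adjusted p = 0.705), 0.21 at 28 m against 2 m (adjusted p = 0.332) and 0.29 at 28 m against 20 m (adjusted p = 0.459). C3 over Serping1 nevertheless averaged 1.38 at 2 m, 1.53 at 20 m and 1.80 at 28 m, and all 28-m ratios exceeded those of the other ages (exact permutation p = 0.1, the smallest possible). Over the 9 libraries Serping1 was most like Axl (Pearson r = 0.926), a receptor tyrosine kinase for the clearance of dying cells, Nif3l1 (0.914) and Sf3a3 (0.907). C3 was most like Anpep (0.939), Atg10 (0.938) and Nif3l1 (0.932).

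C3, C4b, C1ra and Serping1 are transcribed by fibroblasts among other cells, so 10 markers of fibroblasts and adipogenic progenitors were read beside them. Their summed normalized count ranged from 57848 to 113896 at 2 m, from 26335 to 29418 at 20 m and from 26739 to 35743 at 28 m. Of the 10 markers, 6 were called lower at 20 m (7.13% of all genes) and 4 at 28 m (6.24%). They were led by Col1a1, the main chain of type I collagen (log2 -3.50 and -3.34, limma adjusted p = 2.23e-05 and 2.19e-05). The 3 collagens Col1a1, Col1a2 and Col3a1 carried most of this fall, with sums from 37592 to 85922 at 2 m and from 6951 to 10060 at 28 m, and 3 of the 4 calls at 28 m were theirs (the fourth was Dpt). At 20 m 3 of the other 7 were called lower as well, Dpt (log2 -0.997, limma adjusted p = 5.40e-05), Cd34 (-0.45, 0.00974) and Pi16 (-0.66, 0.0390). The sums of these 7, a split chosen after the values were seen and in which Dcn averaged 13783 to 15843 at each age, overlapped between the ages, from 20256 to 30804 at 2 m, from 19976 to 21729 at 20 m and from 19788 to 25683 at 28 m. Not passing at 28 m against 2 m were Pdgfra (log2 -0.12), Dcn (-0.18), Lum (-0.25), Cd34 (-0.29), Pi16 (-0.51) and Ly6a (0.26). Of the 10 log2 fold changes against 2 m, 10 were below 0 at 20 m and 9 at 28 m. The part of these cells in the complement values was not tested.

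Interferons are known inducers of several of these genes, and 10 interferon-response genes were read in the same way. Their sums ran from 2802 to 3191 normalized counts at 2 m, from 2322 to 2401 at 20 m and from 3242 to 3657 at 28 m. At 20 m 4 of the 10 were called lower than at 2 m (7.13% of all genes) and none higher (9.42%). Irf7 was among the 4 (log2 -1.53, limma adjusted p = 0.00290). Against 2 m, 7 of the 10 log2 fold changes at 28 m were above 0 and 3 below, with a median of 0.14. At 28 m Irf7 was called higher than at 20 m (log2 1.58, limma adjusted p = 0.0273). The interferon sums had no overlap between ages, lowest at 20 m and highest at 28 m, and their part in the complement values was not tested. In 2-m library 1, neutrophil markers summed to 4391 normalized counts against at most 69.2 elsewhere.

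In the comparison of 20 m with 2 m, 3 of the 9 genes were called lower, where 7.13% of all genes tested were called lower. C4b alone was called higher, against 9.42% of all genes. At 28 m against 2 m, 3 of 9 were called higher (7.53% of all genes) and 0 lower (6.24% of all genes). The count of 0 lower was also 0 at an unadjusted p under 0.05 and with edgeR and DESeq2. Between 28 m and 20 m, C4b was called higher (0.212% of all genes) and 0 members lower (0.167% of all genes), again with 0 lower at an unadjusted p under 0.05 and by both other tools. At an unadjusted p under 0.05, 8 of 9 members were higher at 28 m than at 20 m, C2 being the exception, where 5.15% of all genes were. In that comparison 9 of 9 log2 fold changes were above 0, with 6 members free of overlap between the ages, whereas 8.63% of all genes lay higher in this way. The median log2 fold change of the members was -0.41, 0.12 and 0.49 in the 3 comparisons, against -0.02, -0.01 and -0.00 over all genes tested. The first 2 comparisons share the 2-m libraries, and 28 m against 20 m shares libraries with both, so a low 20-m value enters 2 of them.

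**Figure D3:**
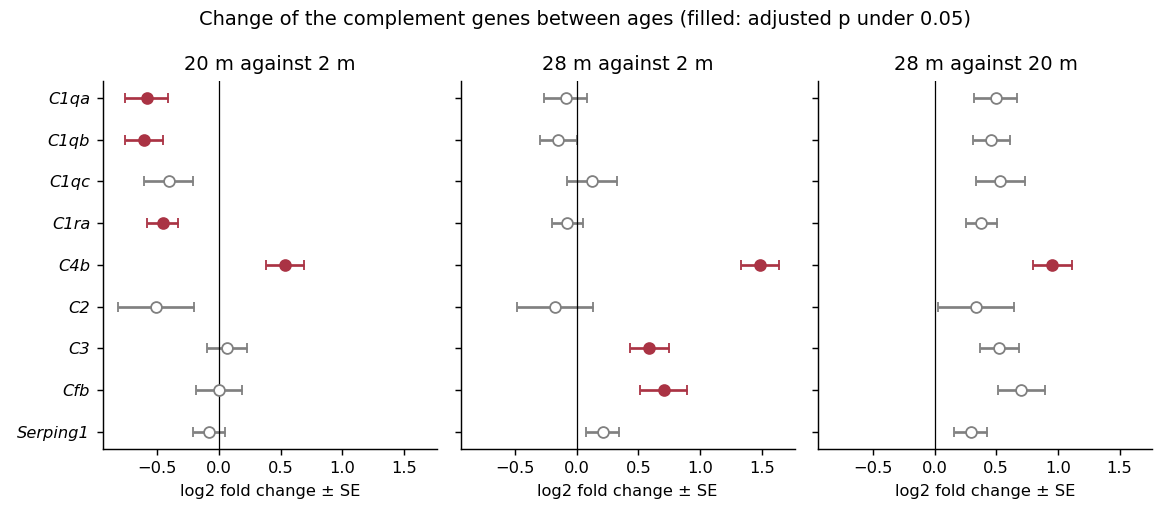
Log2 fold change with SE (horizontal axis) of the 9 complement genes (rows) in the 3 comparisons of ages, with filled points for adjusted p under 0.05. C1qa, C1qb and C1ra lay left of 0 at 20 m against 2 m, and all 9 genes lay right of 0 at 28 m against 20 m.

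Within an age, the same library was often the highest or the lowest for many members. 28-m library 1 was the lowest of its age for 9 of 9 members, and 2-m library 2 for 8 of 9. 2-m library 3 was the highest of its age for 8 of 9, and 20-m library 1 for 7 of 9. These counts were not set against a share over all genes, so they have no background. Most calls were lost when 1 of several libraries was left out, which leaves fewer samples. Leaving out 1 of the 6 libraries compared ended the C1qa call at 20 m for 2-m library 1 or 3 (adjusted p = 0.104 and 0.115) and 20-m library 2 or 3 (0.106 and 0.119). The C1qb call was lost without 2-m library 1 or 3 (0.0522 and 0.0616) or 20-m library 1 or 2 (0.0571 and 0.0597). That of C1ra was lost without 2-m library 3 (0.0963) or 20-m library 2 or 3 (0.0736 and 0.0889). The C4b call at 20 m was lost without 2-m library 1 or 2 (0.106 and 0.0935) or any 20-m library (0.111, 0.0869 and 0.0689). In the fits that lost a call the log2 fold changes lay from -0.57 to -0.49 for C1qa, from -0.61 to -0.53 for C1qb, from -0.46 to -0.36 for C1ra and from 0.44 to 0.55 for C4b.

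At 28 m against 2 m, the C3 call was lost without 2-m library 1 or 2 (limma adjusted p = 0.0988 and 0.0818) or 28-m library 2 or 3 (0.0924 and 0.0995). The Cfb call was lost without 2-m library 2 or 3 (0.0826 and 0.0624) or 28-m library 2 or 3 (0.0902 and 0.0896). Without 2-m library 3 Serping1 was called as well (adjusted p = 0.0393). The rise of C4b at 28 m against 2 m held in each of the 22 alternative analyses, with log2 fold changes between 1.38 and 1.66. Its call at 28 m against 20 m was lost without any 20-m library (0.0918, 0.0701 and 0.0767) or 28-m library 2 or 3 (0.139 and 0.123). In the fits that lost a call the log2 fold changes lay from 0.42 to 0.54 for C3 and from 0.56 to 0.70 for Cfb at 28 m against 2 m, and from 0.84 to 0.98 for C4b at 28 m against 20 m. In each fit the age left with 2 libraries shared 1 estimate of spread with the other ages.

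The libraries numbered 3 were tested separately. Without all 3 of them, C4b was the only member called at 20 m, C3 and C4b were called at 28 m against 2 m, and none at 28 m against 20 m. The log2 fold changes at 20 m were then -0.40 for C1qa (limma adjusted p = 0.275), -0.55 for C1qb (0.101) and -0.29 for C1ra (0.233). With libraries scaled to equal sums, the C4b rise at 28 m against 2 m was the only member call left of the 3 comparisons. The log2 fold changes at 20 m moved little, to -0.57 for C1qa, -0.59 for C1qb, -0.44 for C1ra and 0.55 for C4b, against -0.59, -0.61, -0.46 and 0.53. That rescaling divides by totals that include the unequal Rn45s share. Rescaled to the same sum of all other genes, C1qa, C1qb and C1ra at 20 m and C3, C4b and Cfb at 28 m were called, and C4b at 20 m had an adjusted p of 0.0676. A fold over 2 together with an unadjusted p under 0.05 was reached in the 3 comparisons only by C4b, at 28 m against 2 m (2.66% of all genes were higher by this rule).

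The other 47 genes of the pathway list included receptors, regulators, terminal components and lectins, and 26 of them passed the filter. At 20 m against 2 m Cd55 was called higher (9.42% of all genes) and Cfd, Cfp, Clu and Vtn lower (7.13%). At 28 m against 2 m Cd55 was called higher (7.53%) and Cfd and Clu lower (6.24%). Between 28 m and 20 m 0 of the 26 were called by limma and by edgeR, and 1 (Cfp) by DESeq2, where limma called 0.379% of all genes. An unadjusted p under 0.05 in limma was reached by 3 of the 26, near the share of 10.6% over all genes.

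Cfd encodes factor D, the adipocyte-derived protease (adipsin) that cuts factor B. Cfd read 3056, 1026 and 1585 normalized counts at 2 m, 319, 245 and 292 at 20 m, and 385, 758 and 791 at 28 m. Both later ages lay wholly below 2 m, with log2 fold changes of -2.58 at 20 m (SE 0.34, limma adjusted p = 0.000333) and -1.47 at 28 m (adjusted p = 0.0125). The call at 28 m was lost without 28-m library 1 (log2 -1.14) or without the libraries numbered 3 (log2 -1.71), with an adjusted p of 0.0573 in both. Against 20 m, the 28-m libraries lay wholly above, with a log2 difference of 1.11 that did not pass (adjusted p = 0.236). Of 8 adipocyte markers, 4 were called lower at 20 m (7.13% of all genes) and 1, Cidec, at 28 m (6.24%). The 4 were Retn (log2 -2.48), Plin1 (-1.62), Adipoq (-1.50) and Cidec (-1.36). Fabp4 (-0.38), Lep (0.55), Pparg (0.22) and Lipe (0.09) did not pass at 20 m. The marker sums ran from 6674 to 9350 normalized counts at 2 m, from 5528 to 6280 at 20 m and from 4964 to 7119 at 28 m. Most of each sum was Fabp4, with means of 6007, 4584 and 4668. The part of adipocytes in the fall of Cfd was not tested.

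Cfp encodes properdin, which stabilizes the alternative convertase. Cfp read 132, 125 and 179 normalized counts at 2 m, 50.4, 35.4 and 69.2 at 20 m, and 98.7, 156 and 119 at 28 m. The 20-m libraries lay below all others, and Cfp fell by 1.51 at 20 m (SE 0.28, limma adjusted p = 0.00366). Its difference of 1.28 between 28 m and 20 m had an adjusted p of 0.0860. The pattern of a low 20-m level resembled that of C1qa, C1qb and C1ra in direction.

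Cd55 encodes decay-accelerating factor, a membrane protein that takes C3 convertases apart. Cd55 read 1224, 1107 and 1523 normalized counts at 2 m, 1801, 1819 and 2201 at 20 m, and 2450, 1916 and 2873 at 28 m. The 2-m libraries lay below all others, and Cd55 rose by 0.60 at 20 m and by 0.90 at 28 m (SE 0.15 for both, limma adjusted p = 0.0171 and 0.00192). The call at 20 m was lost without 2-m library 1 (log2 0.57, adjusted p = 0.0587), without 20-m library 3 (0.51, 0.0628) and with equal sums (0.62, 0.171), and that at 28 m in none of the 22 alternatives. By the rule of a fold over 2 and an unadjusted p under 0.05, Cd55, Clu and Vtn were called at neither age. Of the 26 pathway genes that passed the filter, Cd55 was the only one called in the same direction as C4b at both ages. With no filter, Cpn1 (2 reads in all at 2 m, 42 at 20 m and 24 at 28 m) and Vsig4 (0, 22 and 19 reads) were called higher at both ages too.

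Clu (clusterin) and Vtn (vitronectin) encode soluble inhibitors of the terminal attack complex. Clu averaged 2702, 2015 and 1773 normalized counts at 2, 20 and 28 m, and fell by 0.41 and 0.60 at the later ages (limma adjusted p = 0.0171 and 0.00244). The Clu call at 20 m was lost without 2-m library 3 (log2 -0.30, adjusted p = 0.0542), without 20-m library 3 (-0.37, 0.0605), without the libraries numbered 3 (-0.25, 0.147) and with equal sums (-0.40, 0.397), and that at 28 m with equal sums (-0.56, 0.166). Vtn averaged 764, 480 and 572, and fell by 0.67 at 20 m (adjusted p = 0.00535), a call lost with equal sums (-0.66, 0.135), whereas its -0.42 at 28 m had an adjusted p of 0.0544. Most alternatives did not call Vtn at 28 m, but some did, among them the replicate block (limma adjusted p = 0.014) and DESeq2 (0.0396). Of the terminal components, C8a and C8b were at 0 in all libraries, and Hc (C5), C6 and C9 were below the filter. C7 averaged 67.6, 77.5 and 76.6 and C8g 43.9, 33.3 and 39.6 at the 3 ages, with no call. The highest level per kilobase of the list was that of Calr (calreticulin, which can bind C1q), at 3332 normalized counts per kilobase, and it was called in no comparison.

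**Figure D4:**
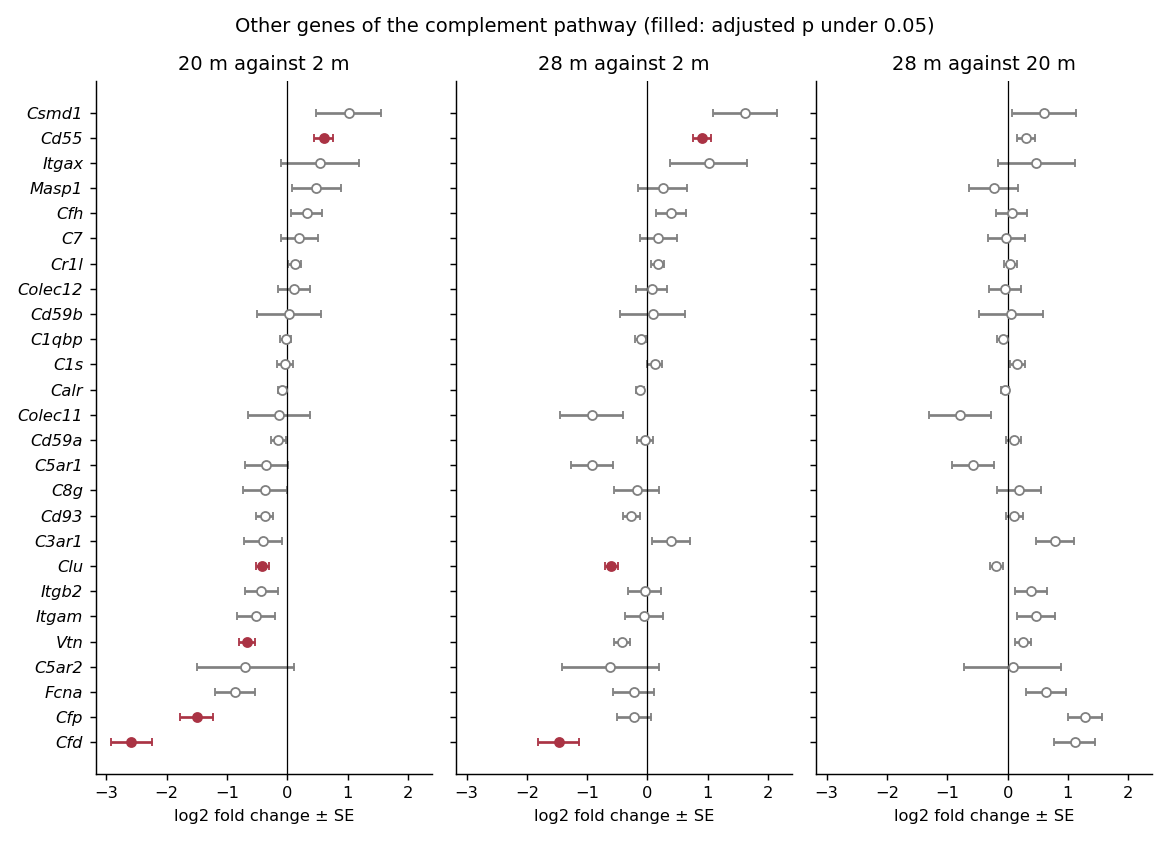
Log2 fold change with SE (horizontal axis) of the 26 other complement pathway genes that passed the filter (rows, ordered by the 20 m against 2 m value), with filled points for adjusted p under 0.05. Cfd and Cfp had the lowest values at 20 m, and Cd55 was called to the right of 0 at both later ages.

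DNA methylation at the start sites was read from the MBD-seq bins of 500 bp within 1000 bp of each start site, 5 bins a gene. With 1 pooled library per age there is no replicate and no test. The exact Poisson 95% intervals cover counting error only. In 2-m muscle the mean normalized count per bin ranged from 3.09 at C3 to 40.4 at C4b, and in 28-m muscle from 12.9 at C2 to 24.1 at C4b. The spread among the 9 start sites was thus narrower at 28 m than at 2 m, and over 20923 genes the quartiles also moved together, from 3.46 and 17.8 to 6.88 and 15.9.

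The C3 start site, low in methylated fragments at 2 m (3.09, interval 1.80 to 4.95) and 20 m (2.53, interval 1.41 to 4.17), read 13.3 at 28 m (interval 10.8 to 16.1). This rise of 1.80 in log2 stood beside a higher C3 transcript level. The C4b start site moved the other way, from 40.4 (interval 35.2 to 46.1) at 2 m and 38.2 at 20 m to 24.1 (interval 20.8 to 27.8) at 28 m. Serping1 went from 25.5 and 24.8 to 16.1, and C1qa from 35.5 and 46.8 to 24.0. Other sites rose between 2 m and 28 m with intervals apart, C1qc from 10.4 to 18.9 and C2 from 7.10 to 12.9. Cfb stayed between 16.4 and 20.0 with overlapping intervals.

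In all, 4 of 9 start sites read lower at 28 m than at 2 m, where 38.4% of 20923 genes did. The median log2 change of the members was 0.08, and that of all genes 0.25. The median of the members changed sign with windows of 500 or 2000 bp on each side (-0.02 and -0.06), and was 0.51 with the columns scaled to equal sums. For the 3 genes called at 28 m the log2 change of the start site was 1.80 at C3, -0.72 at C4b and 0.08 at Cfb, and with equal sums 2.30, -0.29 and 0.51, so the sizes depend on the scaling. In splenic T cells, a separate tissue, the C3 start site read 8.93, 2.92 and 5.55 at 2, 20 and 28 m, without the gain seen in 28-m muscle.

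**Figure D5:**
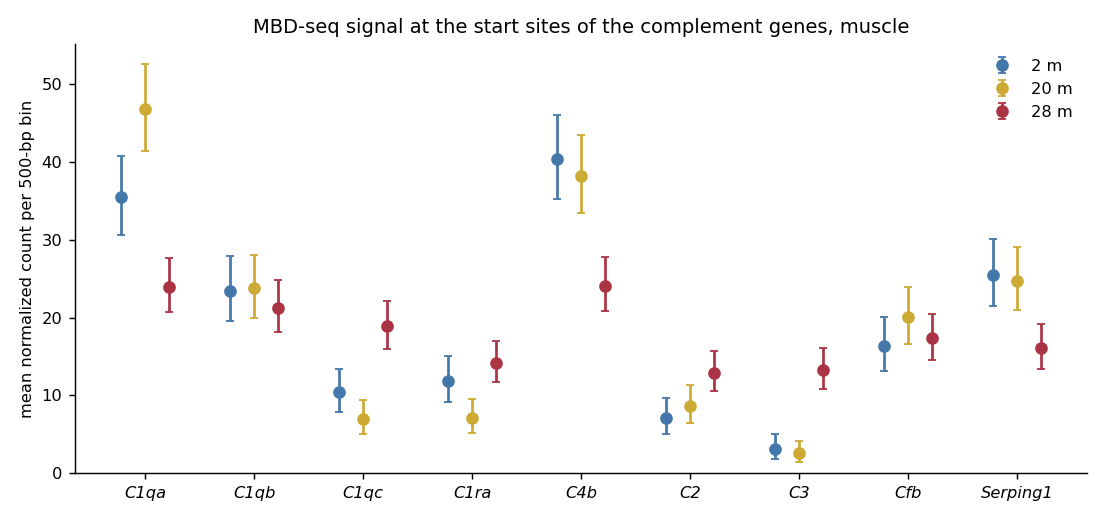
Mean normalized MBD-seq count per 500-bp bin around the start site (vertical axis, starting at 0) of the 9 complement genes in muscle of 3 ages, 1 pooled library each. Bars are 95% Poisson intervals for counting error. At 28 m the values converged to between 12.9 and 24.1, with C3 higher and C4b lower than at 2 m.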

How the data were processed

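The muscle RNA-seq table held 9 libraries, 3 female mice per age. The authors trimmed reads with Trim Galore, aligned poly-A RNA-seq reads to mm10 with Hisat2 (the submitters' processing notes name TopHat), and counted RefSeq genes with htseq-count in intersection-strict mode. The kit does not mark strand. The deposited signal values are these counts divided by 1 DESeq2 size factor per library, and 100% of values were whole reads (tolerance 0.01) after division by the value of 1 read. The 5 rows that name no gene, 37.9% to 47.7% of reads, were left out. The authors mapped MBD-seq reads with Bowtie2 and counted 500-bp bins, again divided by size factors, and the deposited signal of 1 column per age and tissue was used. With htseq-count, reads that fit more than 1 gene or place are not counted, which lowers the values of near-identical genes.

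Here limma-trend 3.58.1 in R 4.3.3 was fitted to log2(normalized count + 1) of all 9 libraries, with age as the only term, 13178 genes with a mean of at least 10, two-sided tests and Benjamini-Hochberg adjustment over all genes. Single ratios used two-sided exact permutation tests, which cannot go below p = 0.1 with 3 against 3 libraries. edgeR 4.0.16 and DESeq2 1.42.0 were run on the recovered reads as alternatives (edgeR called 2200, 1775 and 51 genes at 20 m against 2 m, 28 m against 2 m and 28 m against 20 m). The fit was also run on simulated counts with 2-fold changes at 28 m and no separate effect of the libraries numbered 3. That check does not cover smaller changes. The alternatives were another pseudocount, filter, scaling, replicate block, a term for or omission of the libraries numbered 3, fewer libraries, other tests and call rules, and each library left out in turn. Rescaling without Rn45s was added after seeing the data. Replicate numbers name separate mice and were not used as pairs. Named were all 9 members, pathway genes called in at least 1 comparison, paralogs that share reads, the pathway gene with the highest level per kilobase, leading markers of each list described, and the 3 genes most like C1qa, C3, C4b and Serping1 by Pearson r. The other terminal components, C1s, Cpn1, Vsig4, the fibroblast markers other than Col1a1, the ratios and the other interferon genes were named after their values were seen. So were Cd163, Lyve1 and the adipocyte markers other than Fabp4, Lipe and Adipoq. The 9 members and all gene lists were chosen with earlier results of these data known. Sequences come from RefSeq promoter windows of GRCm38.p6, which matched 4 of 9 members. C1qa, C2, C4b, Cfb and Serping1 had no entry. Gene positions and exon lengths come from RefSeq on GRCm38, the assembly of mm10, and transcript windows from GENCODE. The calls of 1 interferon-response gene are not reported here.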

Additional observations from a re-analysis of the deposited data

How the results depend on the processing

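Each comparison was recomputed under 22 alternatives. Of 594 member fold changes under alternatives, 530 kept their direction and side of the threshold, 44 lost and 2 gained a call, and 18 changed sign, all of them uncalled. With libraries scaled to equal sums, which spreads the unequal Rn45s share over all genes, the counts at 20 m against 2 m went from 4 to 0 members, 5 to 2 pathway genes and 2181 to 586 of all genes, at 28 m against 2 m from 3 to 1 member and 1814 to 554 genes, and at 28 m against 20 m from 1 to 0 members and 50 to 24 genes. Without the 3 libraries numbered 3 the counts were 1 member and 1099 genes, 712 genes, and 0 members and 11 genes in the same order of comparisons. By a fold over 2 and an unadjusted p under 0.05 they were 0 members, 2 pathway genes and 681 genes, then 1 member and 677 genes, then 0 members, 2 pathway genes and 172 genes. Leaving out each library in turn gave 0 to 4, 1 to 3 and 0 to 1 members, 3 to 6, 2 to 4 and 0 to 0 pathway genes, and 1081 to 2231, 963 to 1846 and 14 to 88 genes. At 28 m against 2 m, 5 pathway genes were called with no filter, with quantile normalization and with DESeq2, against 3. At 28 m against 20 m, the replicate block called 138 genes and 1 pathway gene (Cfp), a term for the libraries numbered 3 called 103 and 1, DESeq2 called 228, 1 and 2 members (C4b and Cfb), and the 2 ages alone called 76. The replicate block ended or added no member call. With no filter on low values the C1qa call at 20 m was lost (limma adjusted p = 0.052). With only the libraries of the 2 ages, the C3 call at 28 m against 2 m was lost (limma adjusted p = 0.0504). Same-numbered libraries deviated together, with a Pearson r over 0.1 in each pair, only for number 3 (0.109 to 0.161). Libraries of that number also stood apart by their Rn45s share, and the main fit held no term for it. At 20 m and 28 m against 2 m, the replicate block called 3000 and 2529 genes, against 2181 and 1814. A term for the libraries numbered 3 called 2850 and 2423. The 4 start sites with a lower MBD-seq value at 28 m became 5 and 6 with windows of 500 and 2000 bp on each side, and 3 with the columns scaled to equal sums. Causes other than the construction of each alternative were not tested.

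Values that changed sign were small. At 20 m against 2 m, C3 read -0.0169 with quantile normalization and -0.102 to 0.281 over the omissions of 1 library, below 0 without 2-m library 2 (-0.102) or 20-m library 1 (-0.0288). Cfb read -0.0328 with rescaling without Rn45s, -0.00807 with edgeR, -0.00527 with DESeq2, and -0.142 to 0.146 over the omissions, below 0 without 2-m library 2 (-0.142) or 3 (-0.00266) or 20-m library 1 (-0.107). Serping1 read 0.0705 without the libraries numbered 3 and -0.214 to 0.0854 over the omissions, above 0 without 2-m library 3. At 28 m against 2 m, the omissions gave C1qa -0.22 to 0.0745, above 0 without 28-m library 1, and C1qc -0.0133 to 0.32, below 0 without 2-m library 2. C1ra read 0.0384 without the libraries numbered 3 and -0.133 to 0.0226 over the omissions, above 0 without 2-m library 3. C2 read 0.0392 without the libraries numbered 3 and -0.383 to 0.0959 over the omissions, above 0 without 2-m library 3 or 28-m library 1 (0.0501).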
